A study of Homo sapiens with 6 samples.

Results

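The 36 genes described here are targets and regulators of the hypoxia response and the enzymes and transporters that carry glucose to lactate. They were taken by symbol from a table of transcript counts, summed by gene identifier. ALDOA stands under 2 identifiers, so the symbols gave 37 rows of the 30717 named genes, and all 37 were among the 20721 genes with enough counts to be tested. RNA was sequenced from T24 and UMUC3 (UM-UC-3), established human bladder cancer lines, with and without knockdown of the circular RNA circPTK2, which derives from PTK2. Each line gave 2 circPTK2 knockdown libraries and 1 control library. The knockdown reagent is an siRNA, number 1 or 2, in the titles and an sh construct in the design text, which leaves its kind unsettled, and the control is titled CON. No separate cultures are named, so p-values measure the spread between these libraries, which may be technical. By the titles the knockdown libraries of each line carry siRNA numbers 1 and 2, so this spread may also hold a difference between reagents. The lone control is assumed to vary like the knockdown libraries. Neither the time after knockdown nor the oxygen tension is given in the labels, and the knockdown of circPTK2 itself was not checked here.

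Under hypoxia, prolyl hydroxylases of the EGLN family stop marking the alpha subunits HIF1A and EPAS1 for destruction, and these join ARNT to switch on genes that carry a short hypoxia response motif. Targets raise glucose uptake and glycolysis, hold pyruvate back from mitochondria, remove mitochondria by mitophagy, buffer acid and draw in vessels. Hydroxylation acts on the HIF1A protein, so HIF1A mRNA is no measure of HIF activity. In bladder tumours CA9 and SLC2A1 are widely used as markers of hypoxia.

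Total counts were 65111683 to 72362436 per library, of which 14.9 to 16.1% fell in transcripts with no gene name and were left out. CPM below means counts scaled to a common library total with TMM factors. Keratin genes KRT8 and KRT18 were present in all 6 libraries (81.4 to 1691 and 84.3 to 835 CPM). Of the other epithelial markers KRT7, KRT19, GATA3 and PPARG exceeded 44 CPM in each T24 library and none exceeded 5 CPM in UMUC3, while the epithelial genes EPCAM and CDH1 were at 2.39 CPM or less in T24 and at 0 in UMUC3. KRT5 and UPK2 were at 0.454 CPM or less throughout, and FGFBP1 had 1.88 and 1.87 CPM in T24 knockdown libraries against 55.2 CPM in the T24 control. PTPRC, the pan-leukocyte marker, was at 0 to 0.0673 CPM throughout. Other markers listed as immune or endothelial were not all low: CD68 had 28.2 to 54.1 CPM in UMUC3, and CDH5 64.5 to 75.5 CPM in T24. VIM had 131 to 202 CPM in T24 and 3166 to 3270 CPM in UMUC3, and FN1 2012 to 4091 and 5.14 to 7.83 CPM. No cell type is named from these levels. The 13 mitochondrially encoded genes, read as a sign of RNA quality, summed to 30429 and 31845 CPM in T24 knockdown libraries against 24018 CPM in the T24 control, and to 38692 and 41866 CPM in UMUC3 knockdown libraries against 41222 CPM in the UMUC3 control. Of the 10 that were tested, 10 had positive fold changes in T24 (median log2 0.38) and 2 in UMUC3 (median -0.07), and 0 passed edgeR in either line (10 and 1 at an unadjusted p under 0.05; DESeq2 2 and 0, voom 0 and 0). Of the other mitochondrially encoded genes, MT-CO3 and MT-ATP6 were at 0.161 CPM or less throughout. MT-ATP8 was at 0.0357 CPM or less in every library but the UMUC3 control. There it had 506 CPM, which is within the sum above. The part of the mitochondrially encoded genes in the results below was not tested.

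The motif bound by the HIF complex is written here as ACGTG or GCGTG and was searched on both strands. RefSeq promoter windows (GRCh38.p14, 250 bases before to 50 after a gene's start) were at hand for 32 of the 36 genes, and not for NDRG1, BNIP3L, SLC2A3 and VEGFA. A match lay in 24 of the 32 (75.0%), against 13213 of all 27305 windows (48.4%). For ACGTG alone these shares were 40.6% of the members and 21.6% of all windows. The 250 bases before the start are shown for CA9, ADM, EPAS1 and PFKFB4, which stood higher in UMUC3 knockdown libraries than in the control, and for HIGD1A, which stood lower in both lines. BNIP3 is shown because its window held 6 matches. Capitals mark the matches, each read 5′ to 3′ on the gene's strand, and a CACGTG holds 2 overlapping ones.
CA9 (chr9:35673678-35673927, plus strand): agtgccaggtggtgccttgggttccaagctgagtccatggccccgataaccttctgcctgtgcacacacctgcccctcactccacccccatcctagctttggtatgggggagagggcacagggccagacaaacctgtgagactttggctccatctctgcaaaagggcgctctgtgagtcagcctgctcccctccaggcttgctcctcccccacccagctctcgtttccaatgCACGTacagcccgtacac
ADM (chr11:10304823-10305072, plus strand): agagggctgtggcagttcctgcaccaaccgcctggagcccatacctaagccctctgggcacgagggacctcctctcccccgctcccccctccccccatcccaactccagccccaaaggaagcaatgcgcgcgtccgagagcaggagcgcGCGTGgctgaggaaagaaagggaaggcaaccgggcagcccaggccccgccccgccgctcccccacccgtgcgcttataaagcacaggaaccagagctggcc
EPAS1 (chr2:46297157-46297406, plus strand): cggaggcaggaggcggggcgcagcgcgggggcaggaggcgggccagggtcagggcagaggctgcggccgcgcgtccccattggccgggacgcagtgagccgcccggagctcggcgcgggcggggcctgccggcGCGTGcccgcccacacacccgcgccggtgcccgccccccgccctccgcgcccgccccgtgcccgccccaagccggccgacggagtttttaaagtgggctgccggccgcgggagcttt
PFKFB4 (chr3:48556804-48557053, minus strand): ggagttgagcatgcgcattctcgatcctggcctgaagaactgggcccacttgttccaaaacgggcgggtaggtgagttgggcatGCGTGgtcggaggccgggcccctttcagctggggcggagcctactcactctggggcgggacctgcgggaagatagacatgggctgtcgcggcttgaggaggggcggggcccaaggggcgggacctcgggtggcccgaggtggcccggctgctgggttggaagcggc
HIGD1A (chr3:42804491-42804740, minus strand): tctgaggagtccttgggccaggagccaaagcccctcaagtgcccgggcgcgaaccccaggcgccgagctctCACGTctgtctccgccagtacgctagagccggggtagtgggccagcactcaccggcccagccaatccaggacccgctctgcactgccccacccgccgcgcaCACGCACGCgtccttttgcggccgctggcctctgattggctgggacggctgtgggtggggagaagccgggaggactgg
BNIP3 (chr10:131981924-131982173, minus strand): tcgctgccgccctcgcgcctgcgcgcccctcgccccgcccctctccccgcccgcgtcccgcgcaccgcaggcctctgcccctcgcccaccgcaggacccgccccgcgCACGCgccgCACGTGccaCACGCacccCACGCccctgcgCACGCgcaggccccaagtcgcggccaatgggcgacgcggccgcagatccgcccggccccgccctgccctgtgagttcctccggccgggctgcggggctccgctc
In CA9 the single match began 18 bases before the start, in ADM 101, in EPAS1 117 and in PFKFB4 166 bases before it. HIGD1A had matches 179, 78 and 74 bases before its start, and those of BNIP3 lay between 143 and 104 bases before it. Among the genes with a window that lay above control in all 4 knockdown libraries, EGLN3, PFKP and PDK1 had 0 matches. ADM, EPAS1, PFKFB4, KDM3A, PGK1 and ANKRD37, which lay above likewise, had matches. Matches are letters in a window and not measured binding.

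The largest knockdown difference was in NDRG1, a stress-inducible gene that hypoxia raises in many cell types (ENSG00000104419, GRCh38 chromosome 8, 133237171 to 133302022, minus strand; gene coordinates are from GENCODE 29). NDRG1 was measured at 846 and 809 CPM in UMUC3 knockdown libraries, against 76.2 CPM in the UMUC3 control. In T24 it had 74.9 and 76.0 CPM in knockdown libraries and 34.6 CPM in the control. Both knockdown libraries of each line lay above their control, 10.9-fold by the mean in UMUC3 and 2.18-fold in T24. NDRG1 rose in UMUC3 (log2 fold change 3.44 ± 0.10, SE; edgeR adjusted p = 0.0235), and its T24 value of 1.12 ± 0.09 did not pass (adjusted p = 0.0687). The effect in T24 was 2.32 ± 0.12 log2 units below that in UMUC3, which passed the test of the difference between the lines (-2.32, adjusted p = 0.0487). Its leading transcript, NDRG1-212, annotated as a retained intron form, held 44.2 to 88.3% of the gene's counts. NDRG1-212 had 27170 and 22307 counts in UMUC3 knockdown libraries against 1881 in the control, so it was higher where the gene was. The rest was split differently between the paired libraries: the coding form NDRG1-202 had 17081 counts in UMUC3 knockdown replicate 1 and 3331 in replicate 2, and NDRG1-204, a nonsense-mediated decay form, had 0 and 20546. These assignments are the authors', and no other annotated gene overlaps NDRG1. In bulk RNA, more cells expressing a gene and more RNA per cell cannot be told apart, for this gene and those below.

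BNIP3L and BNIP3 encode related receptors of the outer mitochondrial membrane that mark mitochondria for autophagy, and they differed in these data. BNIP3L (ENSG00000104765, chromosome 8, 26382898 to 26505636, plus strand) had 236.8 and 270.2 CPM in UMUC3 knockdown libraries and 96.4 CPM in the UMUC3 control. In T24 its levels were 209 and 215 CPM in knockdown libraries against 231 CPM in the control. The UMUC3 control was thus the lowest of the 6 libraries, and the UMUC3 knockdown libraries the highest. BNIP3L rose in UMUC3 (log2 fold change 1.39 ± 0.13, edgeR adjusted p = 0.0470) and stood at -0.13 in T24. The difference between the lines was -1.52 ± 0.17 and did not pass (adjusted p = 0.113). A single coding transcript, BNIP3L-201, held 94.2 to 99.9% of its counts. PNMA2 lies partly within the same interval on the other strand, and the sources used here do not give the strand setting of the counting. BNIP3 was at 495 and 513 CPM in UMUC3 knockdown libraries against 568 CPM in the control, and at 137.5 and 136 CPM in T24 knockdown libraries against 171 CPM in the control. All 4 knockdown libraries lay below their control, by -0.32 ± 0.08 in T24 (adjusted p = 0.255) and -0.17 in UMUC3, and neither value passed.

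HIGD1A, a small protein of the inner mitochondrial membrane that binds respiratory complexes and is itself induced by hypoxia, ran opposite to NDRG1. Its levels (ENSG00000181061, chromosome 3, 42784298 to 42804531, minus strand) were 18.3 and 21.9 CPM in T24 knockdown libraries against 123 CPM in the T24 control. In UMUC3 they were 22.6 and 16.7 CPM in knockdown libraries against 59.8 CPM in the control. Each of the 4 knockdown libraries lay below both controls. By the means, knockdown libraries held 0.163 times the control level in T24 and 0.329 times in UMUC3. On the log2 scale this was -2.61 ± 0.24 in T24 (edgeR adjusted p = 0.0808), -1.61 ± 0.24 in UMUC3 (adjusted p = 0.0898) and -2.14 ± 0.27 in both lines together (adjusted p = 0.0915), so it missed the threshold over all genes in each comparison. HIGD1A had the smallest p of the members in both lines together. Its main transcript HIGD1A-201 held 86.5 to 99.9% of its counts, and a protein-coding gene, AC006059.2, overlaps it on the same strand.

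CA9, the membrane carbonic anhydrase that buffers pH around hypoxic cells, was low in T24 and intermediate in UMUC3. It was measured at 21.2 and 23.6 CPM in UMUC3 knockdown libraries against 5.14 CPM in the control, 4.35-fold by the mean. T24 knockdown libraries had 2.19 and 0.690 CPM against 1.97 CPM in the control. In UMUC3 the groups did not overlap, and in T24 1 knockdown library lay above the control and 1 below it. The UMUC3 value of 2.12 ± 0.55 did not pass (edgeR adjusted p = 0.195). ADM encodes the vasodilator peptide adrenomedullin. Its levels were 147.5 and 134 CPM in UMUC3 knockdown libraries against 73.6 CPM in the control, and 78.4 and 75.9 CPM in T24 knockdown libraries against 66.4 CPM in the control. ADM stood at 0.93 ± 0.13 in UMUC3 (adjusted p = 0.0796) and at 0.22 in T24. KDM3A, a histone H3K9 demethylase, had 137 and 156 CPM in UMUC3 knockdown libraries against 96.5 CPM in the control. T24 knockdown libraries had 51.1 and 60.8 CPM of KDM3A against 46.0 CPM in the T24 control, and neither line passed (0.60 ± 0.17, adjusted p = 0.218 in UMUC3). VEGFA, the vascular growth factor, stood at 94.8 and 88.0 CPM in UMUC3 knockdown libraries against 69.8 CPM in the control, and at 65.5 and 61.5 CPM in T24 knockdown libraries against 59.5 CPM. Its UMUC3 value of 0.39 ± 0.13 did not pass (adjusted p = 0.266). ANKRD37, a small HIF target, lay between 6.27 and 10.8 CPM in all libraries and did not pass.

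**Figure D1:**
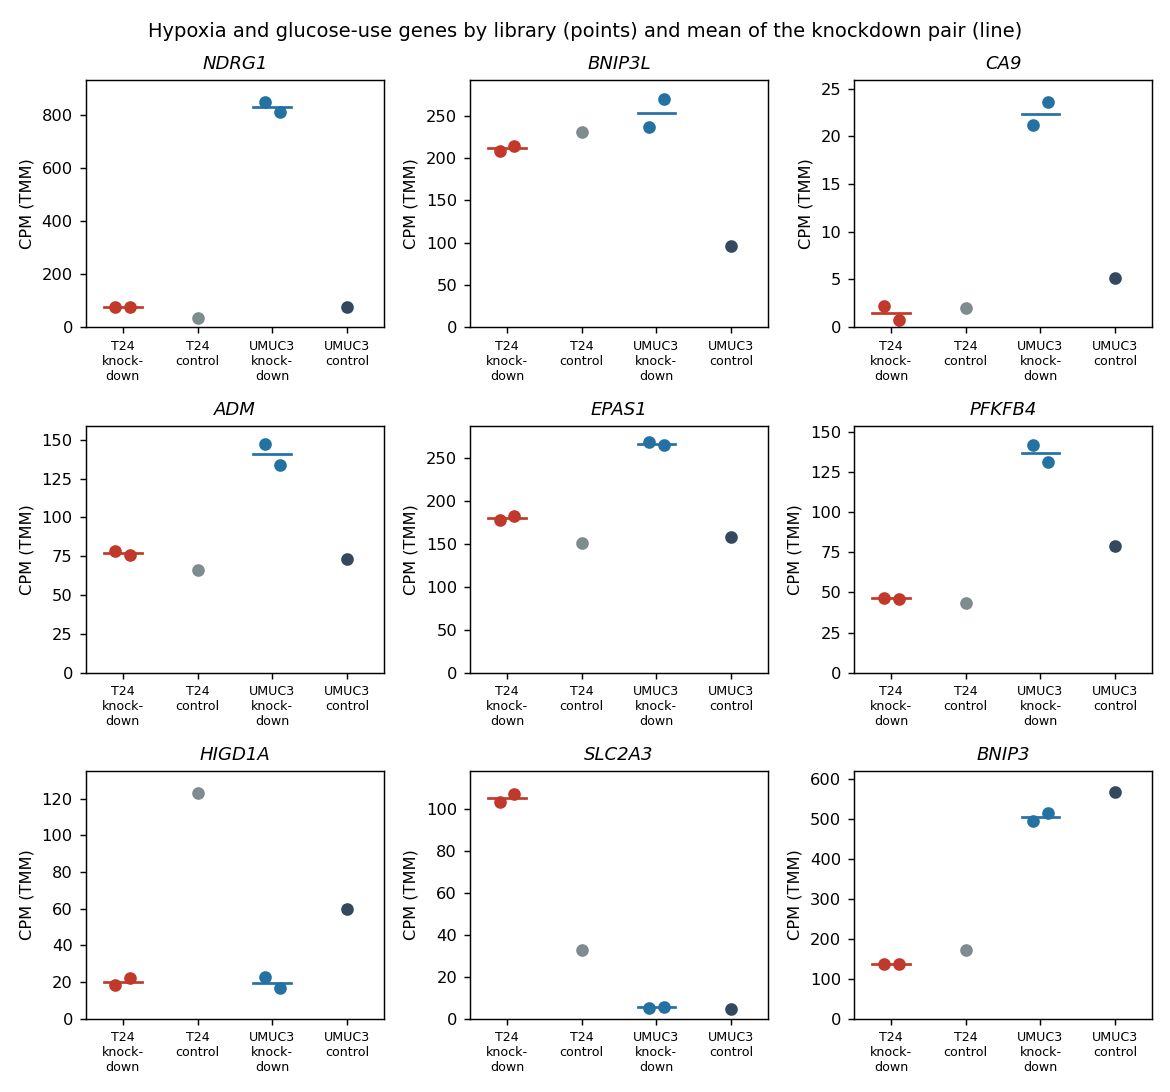
TMM-scaled CPM of 9 genes in each library (points) with the mean of the paired knockdown libraries (horizontal line), T24 knockdown, T24 control, UMUC3 knockdown and UMUC3 control from left to right; each vertical axis starts at 0 and has its own scale. NDRG1, BNIP3L, CA9, ADM, EPAS1 and PFKFB4 stood higher in UMUC3 knockdown libraries than in the UMUC3 control, SLC2A3 was higher in T24 knockdown libraries (103 and 107 CPM) than in the T24 control (32.5 CPM), and HIGD1A was lower in both lines.

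As a group, 7 of the 9 hypoxia response genes lay above control in both UMUC3 knockdown libraries and 2 lay below, against 35.6% and 37.1% of all tested genes. In T24 5 lay above and 3 below, against 34.7% and 37.3% of all genes. Their median log2 fold change was 0.60 in UMUC3 and 0.10 in T24, where the median of all genes was 0. In UMUC3 edgeR called 2 of the 9 higher and 0 lower, and over all tested genes it called 0.430% higher and 0.217% lower. In T24 it called 0 of the 9 in either direction, against 0.135% of all genes (3 of the 9 at an unadjusted p under 0.05; DESeq2 called 2 and voom 0). All 9 effects of T24 minus UMUC3 had a negative sign, a smaller or more negative effect in T24, where 49.3% of all genes had a positive one. NDRG1 was the 1 member called lower in that test and 0 were called higher, against 0.0386% and 0.0193% of all genes (0.0579% in either direction). At an unadjusted p under 0.05, 12 of the 37 rows passed it, against 13.5% of all genes.

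Among the genes that sense oxygen and carry the signal, the median log2 fold change was 0.47 in UMUC3 and 0.26 in T24. EPAS1, the alpha subunit HIF-2α (ENSG00000116016, chromosome 2, 46293667 to 46386703, plus strand), was measured at 268 and 265 CPM in UMUC3 knockdown libraries against 158 CPM in the control. In T24 it had 177 and 182 CPM in knockdown libraries against 151 CPM in the control. Knockdown libraries were above control in both lines, by 0.75 ± 0.09 on the log2 scale in UMUC3 (edgeR adjusted p = 0.0677) and 0.25 ± 0.09 in T24 (adjusted p = 0.385). HIF1A, the alpha subunit of HIF-1, had 188 and 202 CPM in UMUC3 knockdown libraries and 259 CPM in the control. T24 had 368 and 364.5 CPM of HIF1A in knockdown libraries and 302 CPM in the control. HIF1A therefore lay below control in UMUC3 (-0.41 ± 0.09, adjusted p = 0.152) and above it in T24 (0.28 ± 0.09, adjusted p = 0.363), and the difference between the lines did not pass (0.69 ± 0.13, adjusted p = 0.185). In UMUC3 up to 0.45 of its counts sat on other transcripts in another library. EGLN1, the main HIF prolyl hydroxylase, was at 105 and 121 CPM in UMUC3 knockdown libraries against 97.9 CPM in the control, and at 75.4 and 78.6 CPM in T24 knockdown libraries against 86.6 CPM in the control. EGLN3, a hydroxylase that HIF itself induces, was scarce. It stood at 3.09 and 3.15 CPM in T24 knockdown libraries against 1.498 CPM in the control, and at 3.08 and 3.02 CPM in UMUC3 knockdown libraries against 1.83 CPM. All 4 knockdown libraries had more EGLN3 than either control, but the value in both lines together did not pass (0.90 ± 0.26, adjusted p = 0.308). Of these 4 genes edgeR called 0 in either line, against 0.135% of all genes in T24 and 0.647% in UMUC3. At an unadjusted p under 0.05 there were 3 in T24 and 2 in UMUC3, against 12.5% and 16.8%. DESeq2 called 0 and 1 of them, and voom 0 and 0.

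Glucose enters through SLC2A1 and SLC2A3, facilitative transporters that hypoxia can induce. SLC2A3 (ENSG00000059804, chromosome 12, 7919230 to 7936275, minus strand) had 103 and 107 CPM in T24 knockdown libraries against 32.5 CPM in the T24 control, while 5.05 and 5.68 CPM in UMUC3 knockdown libraries against 4.51 CPM in the control. It stood 3.23-fold higher in T24 knockdown libraries by the mean. The T24 value of 1.69 ± 0.16 did not pass (edgeR adjusted p = 0.0829), nor did the difference between the lines (1.44 ± 0.24, adjusted p = 0.163). The coding transcript SLC2A3-201 had 5255 and 6251 counts in T24 knockdown libraries against 1157 in the control. SLC2A1 was at 450.1 and 431 CPM in T24 knockdown libraries against 368 CPM in the control, and at 389.9 and 367 CPM in UMUC3 knockdown libraries against 427 CPM. It lay above control in T24 (0.26 ± 0.09, adjusted p = 0.360) and below it in UMUC3 (-0.17).

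Upper glycolysis splits glucose into triose phosphates. Of its 12 rows, the regulator PFKFB4, whose product makes the allosteric activator of phosphofructokinase, stood out in UMUC3. PFKFB4 (ENSG00000114268, chromosome 3, 48517684 to 48562015, minus strand) had 142 and 131 CPM in UMUC3 knockdown libraries against 78.9 CPM in the control, and 46.7 and 46.2 CPM in T24 knockdown libraries against 43.4 CPM. The UMUC3 value was 0.79 ± 0.12 (edgeR adjusted p = 0.0978). HK2, the hexokinase that HIF induces, was at 122 and 120.2 CPM in T24 knockdown libraries against 159 CPM in the control, and at 322 and 331 CPM in UMUC3 knockdown libraries against 329 CPM. It lay below control in T24 (-0.39 ± 0.08, adjusted p = 0.218) and on both sides of it in UMUC3. PFKP, the platelet isoform of phosphofructokinase, stood above control in all 4 knockdown libraries. Its levels were 528 and 516 CPM against 450.4 CPM in T24, and 935 and 847 CPM against 715 CPM in UMUC3 (0.26 ± 0.09 in both lines together, adjusted p = 0.362). The paired T24 knockdown libraries themselves differed in PFKL, the liver isoform (45.8 and 123 CPM), and in ALDOA, the main aldolase (1618 and 1113 CPM). For these and for HK1, ALDOC, GPI, PFKM, PFKFB3 and TPI1 the fold changes did not pass in either line. In this group edgeR called 0 rows in T24 and 0 in UMUC3, against 0.135% and 0.647% of all genes. At an unadjusted p under 0.05 there were 1 and 2, against 12.5% and 16.8%. DESeq2 called 0 and 1 of these rows, and voom 0 and 0.

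Lower glycolysis, which recovers ATP, held the most abundant members, GAPDH and ENO1. GAPDH, the glyceraldehyde-phosphate dehydrogenase, had 9403 and 9317 CPM in T24 knockdown libraries against 8598 CPM in the control, and 9750.4 and 9265 CPM in UMUC3 knockdown libraries against 9747 CPM. PGK1, the phosphoglycerate kinase, had 1552 and 1519 CPM in UMUC3 knockdown libraries against 1308 CPM in the control, and 1419.9 and 1429.9 CPM in T24 knockdown libraries against 1316 CPM. PGK1 lay above control in all 4 knockdown libraries, with a UMUC3 value of 0.23 ± 0.06 that did not pass (edgeR adjusted p = 0.174). ENO1, the main enolase, was at 7446 and 6742 CPM in UMUC3 knockdown libraries against 6327 CPM in the control, and at 5983 and 6124 CPM in T24 knockdown libraries against 6810.5 CPM. ENO1 thus lay above control in UMUC3 and below it in T24, by 0.17 and -0.17, and neither passed. Its transcript composition differed within UMUC3, where the coding form ENO1-201 held 94.9 and 19.0% of its counts in the paired knockdown libraries and 67.9% in the control, the rest lying almost wholly in the retained intron form ENO1-203. In T24 the share of ENO1-201 was 94.5 to 95.2%. PGAM1, ENO2 and PKM did not pass either, and log2 fold changes of the 6 genes ran between -0.17 and 0.12 in T24 and between -0.07 and 0.79 in UMUC3. Of the 6, edgeR, DESeq2 and voom called 0 in T24 and 0 in UMUC3 (0 and 1 at an unadjusted p under 0.05). Over all genes edgeR called 0.135% and 0.647%, with 12.5% and 16.8% at an unadjusted p under 0.05.

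Pyruvate is turned to lactate by LDHA and LDHB, kept from the mitochondrial pyruvate dehydrogenase by the kinase PDK1, and leaves as lactate through SLC16A3. LDHB had 1294 and 1448 CPM in UMUC3 knockdown libraries against 1799 CPM in the control, and 584 and 597 CPM in T24 knockdown libraries against 671 CPM. All 4 knockdown libraries lay below their control (-0.29 ± 0.09 in both lines together, edgeR adjusted p = 0.344; -0.39 ± 0.09 in UMUC3, adjusted p = 0.162). LDHA, the isoform that HIF induces, had 2801 and 2803 CPM in T24 knockdown libraries against 2748 CPM in the control, and 1555 and 1876 CPM in UMUC3 knockdown libraries against 1661 CPM. PDK1, a classical HIF target, was at 63.6 and 64.3 CPM in T24 knockdown libraries against 59.8 CPM in the control, and at 128 and 133 CPM in UMUC3 knockdown libraries against 120.2 CPM, differences of 0.10 and 0.12. SLC16A3, the lactate exporter MCT4, had 1058 and 576 CPM in T24 knockdown libraries against 482 CPM in the control, and 249.1 and 266 CPM in UMUC3 knockdown libraries against 252 CPM. The spread of SLC16A3 within the T24 pair exceeded the distance of replicate 2 from the control. Of the 4 genes, edgeR, DESeq2 and voom called 0 in T24 and 0 in UMUC3 (0 and 1 at an unadjusted p under 0.05). The shares of all genes that edgeR called were 0.135% and 0.647%, and 12.5% and 16.8% at an unadjusted p under 0.05.

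**Figure D2:**
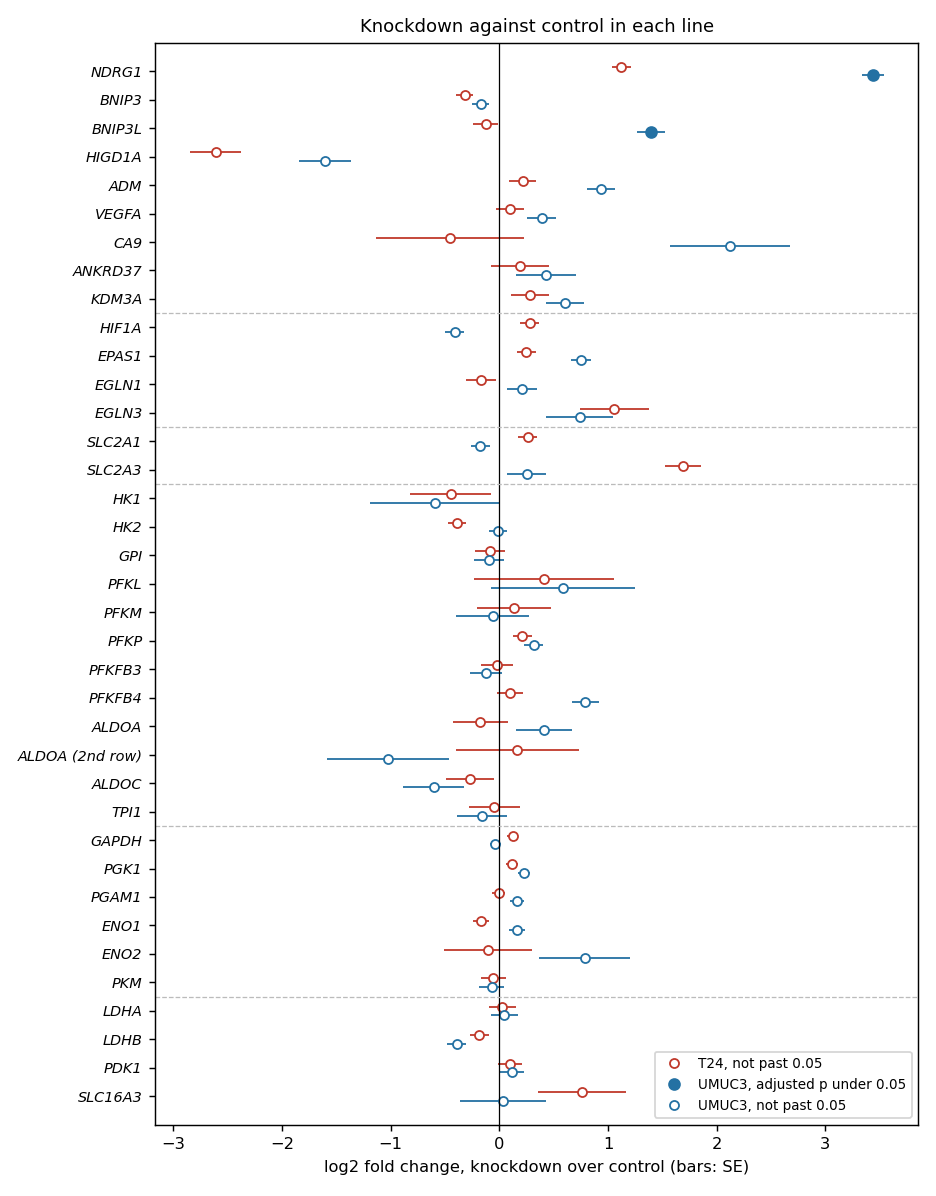
Log2 fold change, knockdown over control, of the 37 rows in T24 (red) and UMUC3 (blue) with the SE as bars; filled points passed an edgeR adjusted p of 0.05 over all genes, and dashed lines part hypoxia response genes, hypoxia factors, glucose import, upper glycolysis, lower glycolysis, and pyruvate and lactate from top to bottom. NDRG1 (3.44) and BNIP3L (1.39) in UMUC3 are the filled points, and HIGD1A lies furthest to the left in both lines (-2.61 in T24, -1.61 in UMUC3).

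Over all 37 rows, edgeR called 0 higher and 0 lower in both lines together, against 0.00483% and 0.00965% of all tested genes (10 rows at an unadjusted p under 0.05, against 11.6% of all genes; DESeq2 called NDRG1, EGLN3 and HIGD1A, voom 0). In T24 it called 0 higher and 0 lower, against 0.0917% and 0.0434% (9 at an unadjusted p under 0.05, against 12.5%; DESeq2 called NDRG1, SLC2A3 and HIGD1A, voom 0). In UMUC3 it called NDRG1 and BNIP3L higher and 0 lower, against 0.647% in either direction (13 at an unadjusted p under 0.05, against 16.8%; DESeq2 called EPAS1, ADM and PFKFB4 higher and HIGD1A lower besides, voom 0). Among all tested genes DESeq2 called 981 in both lines together, 975 in T24, 1712 in UMUC3 and 1119 in the difference between the lines. With voom these counts were 3, 0, 0 and 0. The voom counts of 0 in T24 and UMUC3, here and in the groups above, are therefore not particular to the members. Counting libraries, 12 rows lay above control in all 4 knockdown libraries and 5 below, against 13.3% and 15.1% of all genes. The 12 upper glycolysis rows summed to 4437 and 4317 CPM in T24 knockdown libraries against 4670 CPM in the control. In UMUC3 they summed to 5241 and 4665 CPM in knockdown libraries against 4517 CPM. The 6 lower glycolysis genes summed to 22511 and 23406 CPM in T24 knockdown libraries against 23049 CPM in the control, and to 22501 and 21243 CPM in UMUC3 knockdown libraries against 20958 CPM. The 9 hypoxia response genes summed to 2009 and 2019 CPM in UMUC3 knockdown libraries against 1051 CPM in the control, with NDRG1 the largest part of that gap, and to 647 and 656 CPM in T24 knockdown libraries against 742 CPM. These calls rest on 2 residual degrees of freedom, and leaving out any 1 knockdown library, of either line, leaves 1. No member and no other tested gene was then called in UMUC3 or in the difference between the lines. That loss is therefore not particular to the members. NDRG1 in UMUC3 then lay between 3.41 and 3.48 (edgeR adjusted p of 0.177 to 0.222), and BNIP3L between 1.299 and 1.49 (0.180 to 0.222).

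Reads of many genes were assigned to other transcripts of the same gene from library to library, so a second set of genes was used. When 2 libraries of the same line are compared, some share of a gene's counts sits on other transcripts, and the largest such share is called here its composition shift. The 4467 genes with at least 2 transcripts and a shift below 0.2 in T24 and in UMUC3 alike are termed composition-stable. Of the 37 rows, 16 were in this set. With p-values adjusted over it, BNIP3L, EPAS1, ADM and PFKFB4 were called higher and HIGD1A lower in UMUC3 (edgeR adjusted p values of 0.0203, 0.0309, 0.0378, 0.0473 and 0.0435), against 5.75% of the set. In T24 HIGD1A was called lower (adjusted p = 0.0437), against 1.10% of the set. In both lines together and in the difference 0 of the 16 were called, against 0.201% and 0.246% of the set, with HIGD1A at an adjusted p of 0.0537 in both lines together (DESeq2 and voom were not run on this set, and over all genes they called 3 and 0 rows in each of these comparisons). NDRG1 and SLC2A3 were outside the set, with UMUC3 shifts of 0.46 and 0.90 and T24 shifts of 0.10 and 0.38. Among the rows with large shifts were ALDOC (0.77 in T24 and 0.92 in UMUC3), the second ALDOA row (0.91 and 0.86), PFKFB3 (0.80 and 0.63) and PKM (0.75 and 0.26).

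**Figure D3:**
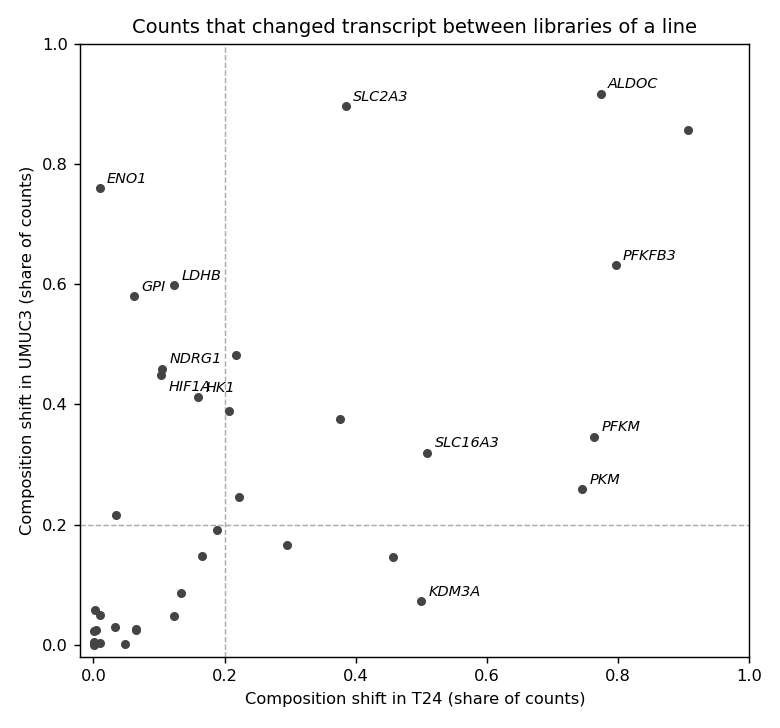
Composition shift (largest share of counts on other transcripts, between any pair of libraries of the line) in T24 (horizontal) and UMUC3 (vertical) for the 37 rows; dashed lines mark 0.2. The 16 rows at the lower left are composition-stable, and ENO1, GPI, LDHB and NDRG1 shifted in UMUC3 while KDM3A shifted in T24.

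Wider lists of the same pathways were counted in the same way. Of 97 tested genes in 5 lists, edgeR called 0 in both lines together, 0 in T24, and 0 higher and 1 lower in UMUC3. Over all genes these shares were 0.0145%, 0.135% and 0.647%. At an unadjusted p under 0.05 there were 16, 20 and 34, against 11.6%, 12.5% and 16.8% of all genes. DESeq2 called 9, 9 and 25 of the 97, and 981, 975 and 1712 of the 20721 tested genes. With voom 0, 0 and 0 of the 97 were called, and 3, 0 and 0 of all genes. Without any 1 knockdown library, no gene was called in UMUC3. DDIT4, a hypoxia-induced inhibitor of mTORC1, lay on opposite sides of control in the lines. It stood at 149.6 and 133 CPM in UMUC3 knockdown libraries against 54.1 CPM in the control, and at 102 and 94.2 CPM in T24 knockdown libraries against 178 CPM. Neither value passed (1.39 ± 0.14, adjusted p = 0.0541; -0.86 ± 0.13, adjusted p = 0.124).

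CUL2, the scaffold of the ubiquitin ligase that degrades hydroxylated HIF subunits, lay below control in all 4 knockdown libraries. It had 27.4 and 30.2 CPM in T24 knockdown libraries against 73.4 CPM in the control, and 38.1 and 38.3 CPM in UMUC3 knockdown libraries against 77.8 CPM (-1.19 ± 0.14 in both lines together, edgeR adjusted p = 0.0874, not past the threshold). SIAH2, a ligase that targets EGLN proteins, was at 88.2 and 84.7 CPM in UMUC3 knockdown libraries against 39.8 CPM in the control (1.12 ± 0.15, adjusted p = 0.0752). GFPT1, which opens the hexosamine branch, had 48.3 and 50.3 CPM in T24 knockdown libraries against 120.7 CPM, and 30.1 and 36.2 CPM in UMUC3 knockdown libraries against 66.2 CPM (-1.15 ± 0.15 in both lines together, adjusted p = 0.0923). GYS1, the glycogen synthase, had 145.7 and 138 CPM in UMUC3 knockdown libraries against 66.0 CPM in the control (1.10 ± 0.11, adjusted p = 0.0541). BSG, the chaperone of lactate transporters, had 319.8 and 307 CPM in UMUC3 knockdown libraries against 488 CPM (-0.64 ± 0.08, adjusted p = 0.0691). PFKFB2, another isoform of the phosphofructokinase regulator, had 9.18 and 9.25 CPM in T24 knockdown libraries against 30.4 CPM (-1.72 ± 0.26, adjusted p = 0.131). None of these values passed over all genes.

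The lines themselves differed more than the conditions. Over 3 libraries each, edgeR called 9 of the 37 rows higher and 14 lower in T24 than in UMUC3, against 21.3% and 18.9% of all genes, or 40.2% in either direction (25 at an unadjusted p under 0.05, against 49.9%; DESeq2 and voom called 25 each). Without overlap of the libraries, 9 rows lay above and 14 below, against 27.2% and 25.1%. Of the 10 tested mitochondrially encoded genes, 9 were called lower in T24, and their part in these values was not tested. Hexokinase usage differed most. HK1 (ENSG00000156515, chromosome 10, 69269984 to 69401884, plus strand), the widely expressed hexokinase, had 242 and 385 CPM in T24 knockdown libraries and 427 CPM in the control of that line. UMUC3 knockdown libraries had 0.874 and 1.59 CPM of HK1, and the UMUC3 control 1.88 CPM. The lines did not overlap, and the log2 difference was 7.92 ± 0.32 (edgeR adjusted p = 5.3e-05). The file holds 5 of the 18 HK1 transcripts of GENCODE 29, and HK1-202, which led in T24, was at 0 counts in all UMUC3 libraries. HK2 was lower in T24, at -1.302 ± 0.12 (adjusted p = 0.000713). Per length, HK1 averaged 201 ± 57 TPM in T24 and 1.36 ± 0.42 TPM in UMUC3, and HK2 47.4 ± 8.0 TPM in T24 and 109 ± 3.7 TPM in UMUC3 (SD, n = 3 each). Thus HK1 was the more abundant hexokinase in each T24 library and HK2 in each UMUC3 library.

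Isozymes and transporters differed likewise. SLC2A3 was 3.83 ± 0.34 log2 units higher in T24 (edgeR adjusted p = 0.000702), while SLC2A1 stood at 0.07 ± 0.12 (adjusted p = 0.652). ALDOC, an aldolase of brain and some tumours, had 33.4 and 32.1 CPM in T24 knockdown libraries with 39.5 CPM in their control. UMUC3 had 3.19 and 2.32 CPM in knockdown libraries and 4.17 CPM in the control (3.46 ± 0.21, adjusted p = 0.000199). ALDOA did not differ past the threshold, and its second row, the overlapping gene ENSG00000285043, stood at 1.41 ± 0.42 (adjusted p = 0.0453). PKM, the pyruvate kinase of most proliferating cells, had 4379 and 5209 CPM in T24 knockdown libraries with 4986 CPM in their control. UMUC3 had 1855 and 1892 CPM in knockdown libraries and 1968 CPM in the control (1.35 ± 0.08, adjusted p = 0.000199). LDHA was higher in T24, at 0.71 ± 0.09, and LDHB lower, at -1.28 ± 0.09 (adjusted p = 0.00212 and 0.000298). Per length, LDHA averaged 3315 ± 114 TPM in T24 and 1771 ± 131 TPM in UMUC3, and LDHB 983 ± 78 TPM in T24 and 2189 ± 471 TPM in UMUC3 (SD, n = 3 each). SLC16A3 (1.42 ± 0.28), HIF1A (0.68 ± 0.16) and PFKFB3 (0.67 ± 0.13) completed the rows higher in T24, with adjusted p values of 0.0124, 0.0209 and 0.00963.

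**Figure D4:**
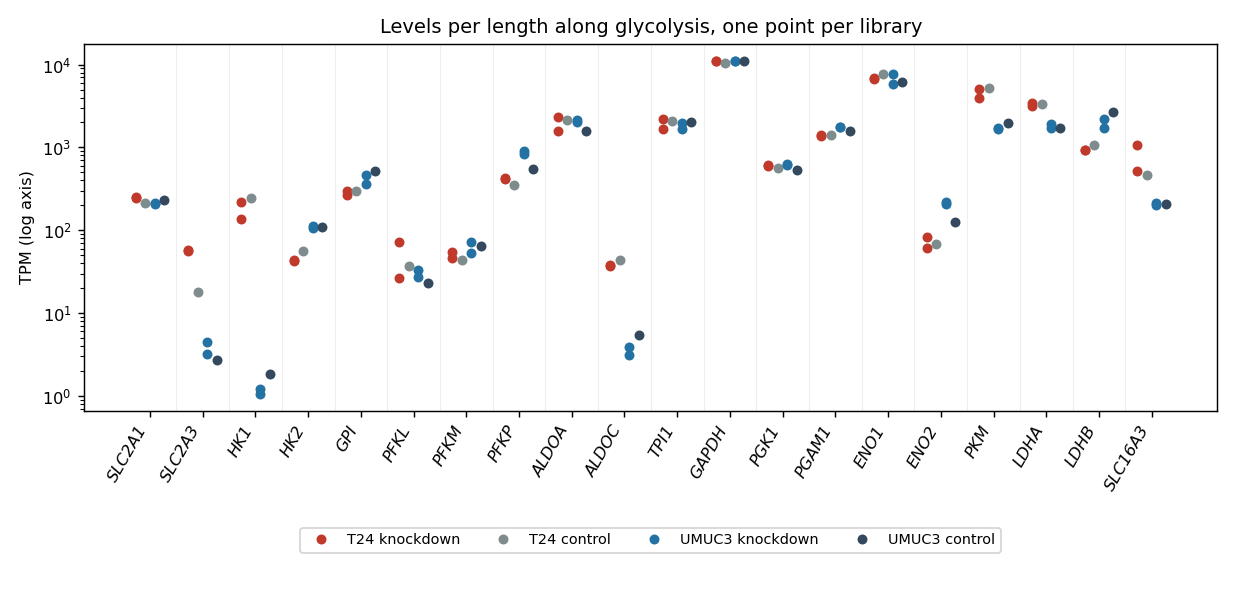
TPM on a log axis of 20 transporters and enzymes in pathway order, 1 point per library, with T24 knockdown, T24 control, UMUC3 knockdown and UMUC3 control from left to right within each gene. GAPDH lay at the top in all libraries, while HK1, ALDOC and SLC2A3 lay far higher in T24 than in UMUC3 and HK2, LDHB and ENO2 lay lower.

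Of the 14 rows lower in T24, 6 were among the 9 hypoxia response genes, where 18.9% of all genes were called lower. These 6 were BNIP3, KDM3A, NDRG1, CA9, ADM and VEGFA. BNIP3 stood at -1.83 ± 0.09 (edgeR adjusted p = 9.8e-05), PDK1 at -1.02 ± 0.10, KDM3A at -1.28 ± 0.15 and PFKFB4 at -1.33 ± 0.18 (adjusted p = 0.00117, 0.00163 and 0.00289). PFKP (-0.74), PGAM1 (-0.37) and GPI (-0.40) followed among the enzymes, the phosphoglycerate mutase PGAM1 with 1275 and 1231 CPM in T24 knockdown libraries with 1259 CPM in their control. PGAM1 had 1709 and 1649 CPM in UMUC3 knockdown libraries and 1502 CPM in the control. GPI, the glucose-6-phosphate isomerase, had 546 and 449 CPM in T24 knockdown libraries with 527 CPM in their control, and 671 and 636 CPM in UMUC3 knockdown libraries with 699 CPM in theirs. Several values were smaller between the control libraries than over all libraries. Over all libraries NDRG1 stood at -2.73 ± 0.52, CA9 at -3.15 ± 0.65, ADM at -0.63 ± 0.18, VEGFA at -0.43 ± 0.13 and the neuronal enolase ENO2 at -1.01 ± 0.30 (adjusted p = 0.0117, 0.0143, 0.0375, 0.0429 and 0.0435). Between the control libraries alone, with the spread taken from the knockdown pairs, they stood at -1.14, -1.38, -0.15, -0.23 and -0.42, where NDRG1 passed (adjusted p = 0.00619) and the other 4 did not. HIF1A (0.22), SLC16A3 (0.94), PFKFB3 (0.60), PGAM1 (-0.25), GPI (-0.41) and the second ALDOA row (0.62) did not pass between controls either, where the test called 14 rows, against 24.4% of all genes. Over composition-stable members edgeR called 0 higher and 9 lower, against 51.5% of that set. The set holds none of the rows called higher over all genes, so it could not call them. Its 9 rows include EGLN1 and EPAS1 (edgeR adjusted p of 0.044 and 0.047 over the set). Over all genes BNIP3L, HIGD1A, ANKRD37, EGLN3, GAPDH, PGK1, TPI1, ENO1, ALDOA, PFKL and PFKM did not pass between the lines, nor did EGLN1 and EPAS1 (adjusted p = 0.0529 and 0.0571).

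**Figure D5:**
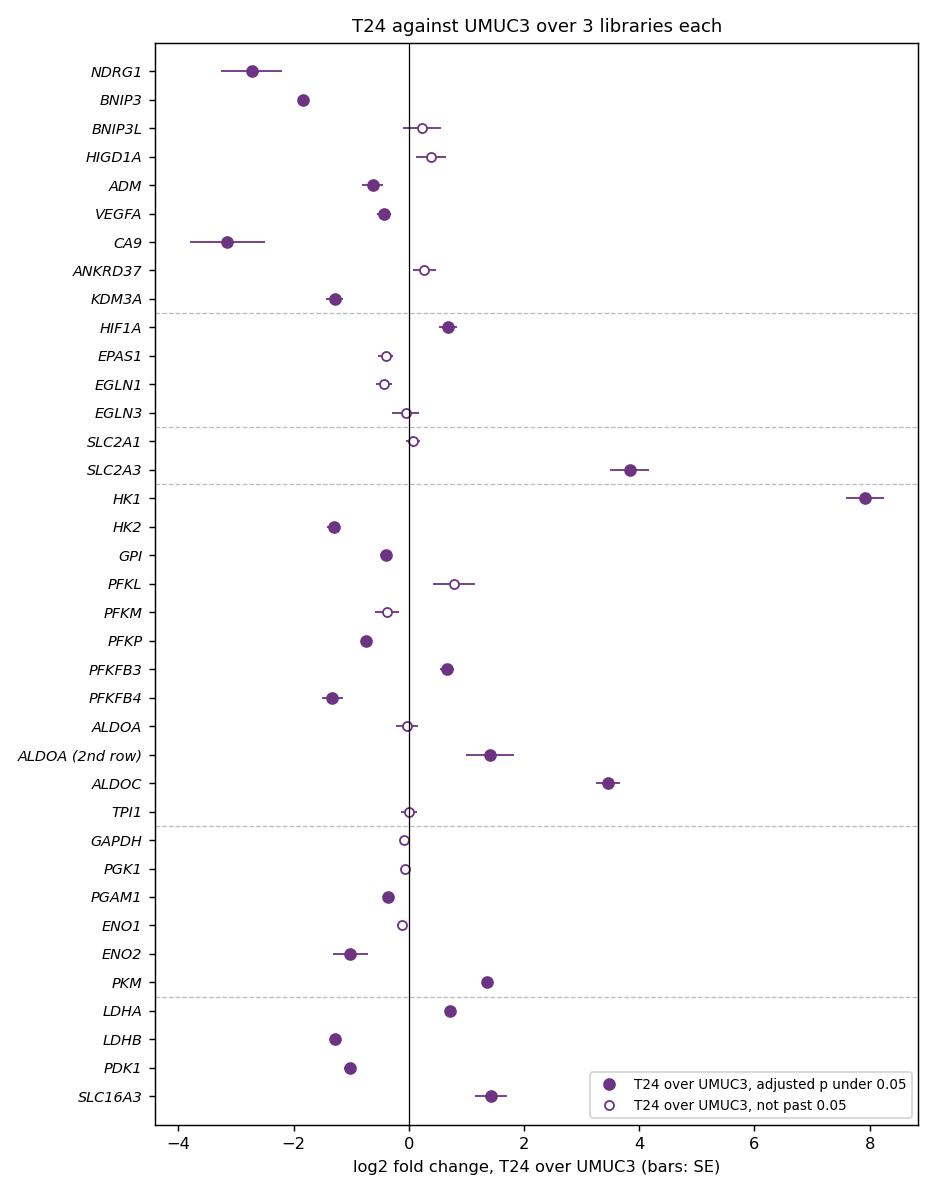
Log2 fold change, T24 over UMUC3 over 3 libraries each, of the 37 rows with the SE as bars; filled points passed an edgeR adjusted p of 0.05, and dashed lines part the same 6 groups as in the plot of knockdown effects. HK1 (7.92), SLC2A3 (3.83) and ALDOC (3.46) lie furthest to the right, and CA9 (-3.15) and NDRG1 (-2.73) furthest to the left.

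The wider lists also differed between the lines. Of the 97 genes, edgeR called 23 higher and 29 lower in T24, against 21.3% and 18.9% of all genes. TXNIP, which restrains glucose uptake, had 225 and 217 CPM in T24 knockdown libraries with 165 CPM in the control, and 8.33 and 10.4 CPM in UMUC3 knockdown libraries with 8.398 CPM in the control (4.47 ± 0.16, adjusted p = 3.3e-05). STC1, a secreted glycoprotein that HIF induces, ran the other way, at 1.28 and 0.790 CPM in T24 knockdown libraries with 1.48 CPM in the control, and at 104 and 113 CPM in UMUC3 knockdown libraries with 96.5 CPM in the control. SLC16A1, the transporter MCT1, was lower in T24 (-1.40 ± 0.12, adjusted p = 0.000569), opposite in sign to SLC16A3. TALDO1, the transaldolase of the pentose phosphate pathway, was higher (1.23 ± 0.09, adjusted p = 0.000406), and PYGL, the liver glycogen phosphorylase, lower (-1.09 ± 0.13, adjusted p = 0.00176).

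Per length, the order of the members was alike in the lines at the top. GAPDH averaged 10876 ± 398 TPM in T24 and 11099 ± 64 TPM in UMUC3, followed by ENO1 at 7109 ± 551 and 6573 ± 1075 TPM (SD, n = 3 each). Next in T24 came PKM (4754 ± 678 TPM), LDHA, ALDOA (2026 ± 407 TPM) and TPI1 (1990.2 ± 281 TPM). In UMUC3 LDHB, ALDOA (1918 ± 313 TPM), TPI1 (1877 ± 191 TPM), PKM (1790.3 ± 169 TPM), LDHA and PGAM1 (1701 ± 117 TPM) followed, and each differed from its neighbour in this order by less than the larger SD. All 37 rows together held 35353 and 36071 TPM in T24 knockdown libraries against 36952 TPM in the T24 control, and 34268 and 32605 TPM in UMUC3 knockdown libraries against 32311 TPM in the UMUC3 control. The scarcest members in T24 were CA9 (2.11 ± 0.95 TPM) and EGLN3 (2.28 ± 0.82 TPM), and in UMUC3 HK1, EGLN3 (2.01 ± 0.57 TPM) and SLC2A3 (3.44 ± 0.88 TPM).

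PKM is spliced into the forms M1 and M2 by mutually exclusive use of exons 9 and 10 (GRCh38 chromosome 15, 72203022 to 72203188 and 72202454 to 72202620, minus strand). Transcripts with exon 10, the M2 form of most tumour cells, held 40.5 and 68.3% of PKM counts in T24 knockdown libraries against 56.0% in the T24 control. In UMUC3 they held 68.3 and 77.9% in knockdown libraries against 61.9% in the control. Transcripts with exon 9 held 42.4 and 23.7% in T24 knockdown libraries against 38.6% in the control, and 21.6 and 12.6% in UMUC3 knockdown libraries against 23.5%. For exon 10 the T24 knockdown libraries straddled the control, and both UMUC3 knockdown libraries lay above it. The leading transcript, PKM-219, is annotated as a nonsense-mediated decay form and had 0 counts in T24 knockdown replicate 1, 178225 in replicate 2 and 138778 in the T24 control, so these shares carry the same unsettled assignment as the composition shift of PKM. No test was made on them.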

How the data were processed

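The deposited table holds raw read counts per transcript, which the authors assigned. FastQC 0.11.5, HISAT2 2.1.0, StringTie 1.3.3b and hg38 are named in the submitters' processing notes, and the counting step and its strand setting are not given in the sources used here. Of 136953 transcripts, 15038 have no gene. Transcript names matched GENCODE 29 for 121869, of which 121252 had the same coordinates. In T24 the siRNA number of a title and that of its data column are swapped, and replicate numbers are those of the titles. Counts were summed by gene, and genes with at least 10 counts in 2 libraries and 30 in total were tested in edgeR 4.0.16 (R 4.3.3) by its quasi-likelihood test with TMM factors, a robust bias-corrected fit and Benjamini-Hochberg adjustment over all tested genes, called at 0.05. Both lines together, and line against line, had a term for line and one for knockdown, leaving 3 residual degrees of freedom, and the other comparisons had 4 groups, leaving 2. DESeq2 1.42.0, voom in limma 3.58.1, other scalings and filters, added pseudogene counts (79 gene rows), replicate blocks and fits without 1 library were alternatives. TPM divides counts by each transcript's exonic length. The steps were tested on simulated data. Members, lists and tests were chosen with earlier results of these data known. Called members, the 10 members with the smallest p in each comparison, HIF1A and EPAS1 are given in full, and wider lists follow the same idea, with called genes or those with the smallest p, not every one of which is printed. The gene of the wider lists called in UMUC3 is not reported here.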

Additional observations from a re-analysis of the deposited data

Results flagged for a closer look

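The knockdown effect on NDRG1 differed between the lines by edgeR's test of that difference, at -2.32 ± 0.12 on the log2 scale for T24 minus UMUC3 (SE; adjusted p = 0.0487). Both knockdown libraries lay above their control in each line. The adjusted p was close to the threshold, and over 16 alternatives the value ran between -2.36 and -2.29, with 6 past the threshold.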

How the results depend on the processing

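Counts of the 37 rows called in each comparison moved as follows. In both lines together (0 called) DESeq2 called 3. Without the T24 control, where the effect rests on UMUC3, more members and also more of all tested genes were called. Without the UMUC3 control more of all tested genes were called, but no member. In T24 (0) DESeq2 called 3 and the composition-stable set 1. In UMUC3 (2) library size alone gave 1, DESeq2 6, voom 0, the composition-stable set 5, a legacy dispersion fit, chosen after seeing the data, 1, and fits without a knockdown library 0. In the difference between the lines (1) RLE factors, a minimum mean of 5 CPM, voom and the legacy fit gave 0, and DESeq2 3. The composition-stable set also gave 0, but it holds 16 of the 37 rows and not NDRG1, the 1 row called, so it could not call NDRG1. Between the lines (23) the composition-stable set gave 9, controls alone 14, and fits without a library 15 to 23, the 15 without T24 knockdown replicate 2. The composition-stable set holds none of the rows called higher over all genes, so it could not call them. Calls over all tested genes fell too, from 8329 to 5049 between controls and to 5913 to 7222 in fits without a library. Adding pseudogene counts or summing rows with the same symbol, the latter chosen after seeing the data, left the counts in the 4 knockdown comparisons as they were. Of all values of named members, 2 reversed: HIF1A in both lines together (-0.08) stood at 0.003 without UMUC3 knockdown replicate 1 and at 0.28 without the UMUC3 control, and at -0.41 without the T24 control. A further 1075 kept their side of the threshold, 86 lost it and 25 gained it. Under a replicate block by siRNA number, edgeR called 0 rows in each knockdown comparison and 20 (title numbers) or 19 (column numbers) between the lines. Over all tested genes the blocks also called 0 in each knockdown comparison, and voom called 0 in T24, UMUC3 and the difference. Fits without a knockdown library likewise called no tested gene in the knockdown comparisons. Those counts of 0 are not particular to the members. Deviations of same-numbered libraries correlated at 0.0153 by title. Numbering by column name only swaps the T24 pair, so its -0.0153 is the same value with its sign reversed. Whether same-numbered libraries share a reagent was not tested. The causes of these changes were not tested. Each line has 1 control library, the fits leave 2 or 3 residual degrees of freedom, and whether depth or the number of libraries limits the calls was not tested.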
